A study of Rattus norvegicus with 21 samples.

Results

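The PERK, ATF4 and CHOP stress arm was followed through 9 genes in INS-1, an insulin-secreting tumour cell line of the rat that stands in for the pancreatic beta cell. The genes were taken from a named list: Eif2ak3, Atf4, Ddit3, Nupr1, Trib3, Chac1, Ppp1r15a, Ddit4 and Sesn2. The list was chosen with earlier results of these data known, so counts of its genes beside the share of all genes are descriptions. Each of these 9 of 13438 genes on the array was read from its brightest probe set that carries a single gene symbol. The stress sensor PERK, encoded by Eif2ak3, sits in the membrane of the endoplasmic reticulum and phosphorylates the translation factor eIF2 when unfolded proteins build up. General protein synthesis then falls, while the messenger of the transcription factor ATF4 is translated better, and ATF4 turns on genes of amino acid supply, redox balance and cell fate. Among its targets is CHOP, encoded by Ddit3, which is known in beta cells for its link to apoptosis under lasting stress.

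RNA from 21 samples was hybridised to 1 Affymetrix array each, in 7 groups of 3. Untransfected cells (INS1) were measured at 0 h only. The line pcDNA, stably transfected with the empty vector, and the line pCTSH#1, a single clone that stably overexpresses the lysosomal protease cathepsin H (CTSH), were measured after 0, 6 and 16 h with cytokines. All cells were precultured for 3 days, and the cytokines were recombinant mouse IL-1β at 150 pg/ml together with recombinant rat IFNγ at 5 ng/ml, which model the attack of immune cells on beta cells. The promoter that drives CTSH, and whether pcDNA is a clone or a pool, are not given in the sources used here. No untreated arrays at 6 or 16 h were analysed here, so changes from 0 h cannot be told apart from time in culture. Whether the numbered replicates come from separate cultures is not stated, and a p-value here reflects array-to-array spread that may be technical.

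Array medians lay between 4.88 and 5.08 on the log2 scale, and the arrays of a group correlated at 0.993 to 0.997 on average. Background, read as the brightest nonspecific control of an array, was 3.88 to 4.17. None of the 9 genes was at background in any group. The rat Ctsh probe set was at or near background in every group (means 3.67 to 4.45), and whether it can detect the transfected sequence is not stated, so it does not check the label. Of 12 beta-cell markers 8 were measured, and all 8 lay above background in every group. At background in every group were 4 of 5 markers of other islet cells (the glucagon gene Gcg was above it) and 6 of 8 of leukocytes, and 5 to 7 of 7 of fibroblasts and endothelium depending on the group. Precision is limited throughout by having 3 arrays a group.

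The promoters of 4 of the genes are shown because they hold a recognised letter motif of stress-responsive factors. All 9 genes matched RefSeq by symbol, and the windows are the 250 bases before each start in build GRCr8, printed 5′ to 3′ along the gene's strand with the motif in capitals. For Nupr1 the gene identifier in the array annotation differs from that in RefSeq, so its window rests on the symbol alone. The first 3 hold the core of the C/EBP-ATF response element, the composite site that ATF4 and CHOP dimers can bind, searched as TGATGNAA on both strands. Chac1 is at chr3:126795881-126796130 on the plus strand, Trib3 at chr3:161275534-161275783 on the minus strand, and Nupr1 at chr1:190645902-190646151 on the minus strand. The fourth, Ppp1r15a, at chr1:105139597-105139846 on the minus strand, holds the palindromic cAMP response element TGACGTCA, a motif that was added to the search after the sequences had been read.
Chac1: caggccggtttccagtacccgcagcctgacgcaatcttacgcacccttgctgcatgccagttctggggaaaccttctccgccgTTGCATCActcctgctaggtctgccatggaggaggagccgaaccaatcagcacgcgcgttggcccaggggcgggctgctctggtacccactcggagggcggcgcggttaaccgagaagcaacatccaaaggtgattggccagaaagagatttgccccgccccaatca
Trib3: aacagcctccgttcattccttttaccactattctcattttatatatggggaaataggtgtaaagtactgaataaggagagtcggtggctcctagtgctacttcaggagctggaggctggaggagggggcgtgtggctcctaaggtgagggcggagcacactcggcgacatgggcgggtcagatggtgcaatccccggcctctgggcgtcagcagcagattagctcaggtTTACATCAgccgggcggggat
Nupr1: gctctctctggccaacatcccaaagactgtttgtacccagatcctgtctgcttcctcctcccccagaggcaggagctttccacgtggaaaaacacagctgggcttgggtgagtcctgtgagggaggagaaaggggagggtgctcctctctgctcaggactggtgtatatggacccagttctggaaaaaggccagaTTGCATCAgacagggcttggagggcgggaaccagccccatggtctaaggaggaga
Ppp1r15a: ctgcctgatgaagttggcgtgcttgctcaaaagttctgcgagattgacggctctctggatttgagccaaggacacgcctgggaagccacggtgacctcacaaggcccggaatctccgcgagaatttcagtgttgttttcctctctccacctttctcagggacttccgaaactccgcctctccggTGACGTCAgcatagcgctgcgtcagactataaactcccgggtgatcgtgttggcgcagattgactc

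The response element core lay 167 to 160 bases before the start of Chac1, 55 to 48 before that of Nupr1 and 21 to 14 before that of Trib3. In each of these windows it reads from the opposite strand, so the printed capitals are TTGCATCA in Chac1 and Nupr1 and TTACATCA in Trib3. It occurred in 3 of the 9 windows and in 3.40% of the 33469 RefSeq windows of the same length. An exact match to the 19-base pattern of the endoplasmic reticulum stress response element, a split site of ATF6, was in 0 of the 9 windows. It was in 0.066% of all windows. Inexact matches were not searched, and the Ddit3 window holds a near match on the opposite strand. The 0 therefore does not show that such a site is absent. The cAMP response element lay 66 to 59 bases before the start of Ppp1r15a and occurred in 1.59% of all windows. GC content of the 9 windows ran from 51.6% for Eif2ak3 to 67.6% for Ddit4, each above the median of all windows, 51.2%. A match describes the letters of a window and says nothing of binding in these cells.

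The first question was how the 9 genes moved in each line. In pcDNA 7 of the 9 rose and 2 fell at 6 h, where 14.5% of all genes rose and 24.6% fell. In pCTSH#1 at 6 h 3 rose, 2 fell and 4 did not pass, against 13% of all genes higher and 21.3% lower. At 16 h all 9 were above 0 h in both lines, where 25.8% of all genes were higher in pcDNA and 25.2% in pCTSH#1. All 9 also rose between 6 and 16 h, against 24.8% of all genes in pcDNA and 24% in pCTSH#1. The median change of the 9 in pcDNA was 1.22 at 6 h and 2.64 at 16 h on the log2 scale. In pCTSH#1 it was 0.09 at 6 h and 2.55 at 16 h, while the median over all genes stayed between -0.06 and 0 in both lines. Fewer responding cells and less RNA per cell cannot be told apart in these bulk samples.

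Cell type markers moved in the same samples. At 6 h 24.6% of all genes were lower in pcDNA and 21.3% in pCTSH#1. At 16 h 14399 of 31042 probe sets passed in pcDNA, 45.8% of them higher and the rest lower. In pCTSH#1 14413 passed at 16 h, 44.8% of them higher. Of the 8 beta-cell markers 4 fell at 6 h and 8 at 16 h in pcDNA, and 3 and 6 fell in pCTSH#1. The mean level of these 8 per array was 11.5 to 11.53 at 0 h, 10.6 to 10.78 at 6 h and 10.41 to 10.47 at 16 h in pcDNA, and 11.6 to 11.63, 10.9 to 11.01 and 10.41 to 10.65 in pCTSH#1 (log2). The median change of the 8 at 6 h was smaller, -0.25 in pcDNA and -0.15 in pCTSH#1. Nkx6-1, a beta-cell transcription factor, fell most, from 8.46 at 0 h to 5.32 at 6 h in pcDNA and from 9.04 to 6.07 in pCTSH#1. Nkx2-2 went from 9.69 to 7.70 in pcDNA, while Ins1 moved only from 13.73 to 13.68 there and Slc2a2 from 12.43 to 12.33. At 16 h 2 of the 8 leukocyte markers were higher in pcDNA and 3 in pCTSH#1, where 25.8% and 25.2% of all genes were higher. Cd68, a lysosomal protein of macrophages, rose from 4.69 to 5.52 and from 4.65 to 5.89, while the pan-leukocyte marker Ptprc was at background in every group. The mean level of the leukocyte list per array was 3.73 to 3.75 at 0 h and 3.89 to 4.01 at 16 h in pcDNA, and 3.78 to 3.84 and 4.03 to 4.12 in pCTSH#1. The part of these shifts in the members' changes was not tested.

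**Figure D1:**
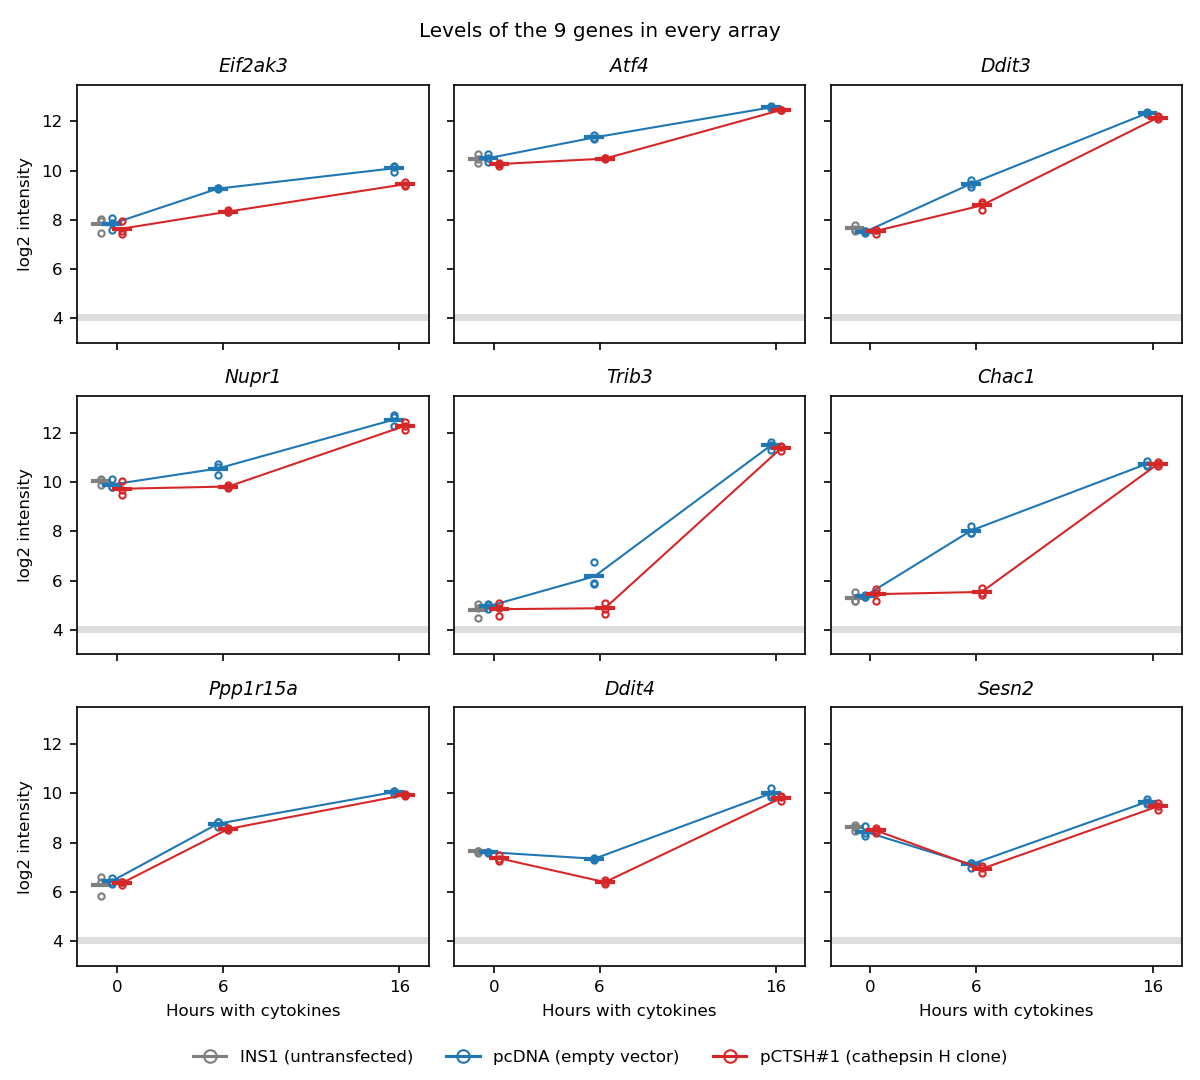
Level of each gene (log2 intensity, y axis) against hours with cytokines (x axis). Circles are single arrays, bars are group means, lines join the means of a line, and the grey band is the background of 3.88 to 4.17. At 6 h Chac1 averaged 8.03 in pcDNA and 5.54 in pCTSH#1, and at 16 h 10.75 and 10.74.

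The second question was how the transfected lines differed at each time. Because pCTSH#1 is a single clone, line differences in level or response cannot be told apart from variation between clones. Without cytokines 0 of the 9 genes differed between pCTSH#1 and pcDNA by limma (2 at an unadjusted p under 0.05, Atf4 and Ddit4, both lower), against 2.56% of all genes. At 6 h 7 of the 9 were lower in pCTSH#1 and none higher, against 1.56% of all genes lower and 2.43% higher. At 16 h 1 of the 9, Eif2ak3, was lower and 8 did not pass, against 1.96% of all genes lower. The median difference of the 9 was -0.11 at 0 h, -0.88 at 6 h and -0.18 at 16 h, while the median over all genes was between -0.01 and 0. Against untransfected cells at 0 h 0 of 9 passed for pCTSH#1 by limma (3 at an unadjusted p under 0.05), where 3.45% of all genes did. For pcDNA against the same cells 0 of 9 passed (0 at an unadjusted p under 0.05), and so did 0% of all genes. Among the beta-cell markers 2 of 8 were higher in pCTSH#1 than in pcDNA at 6 h, Ins2 and Nkx6-1, and 2 at 16 h, Ins2 and Slc2a2, while 0 of 8 leukocyte markers passed by limma at either time (at an unadjusted p under 0.05, 0 at 6 h and 1 at 16 h, Ptprc). Between the lines at 16 h 1181 of 31042 probe sets passed, 61.1% of them higher in pCTSH#1. The part of these markers was not tested. These comparisons share groups of arrays and are given side by side.

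**Figure D2:**
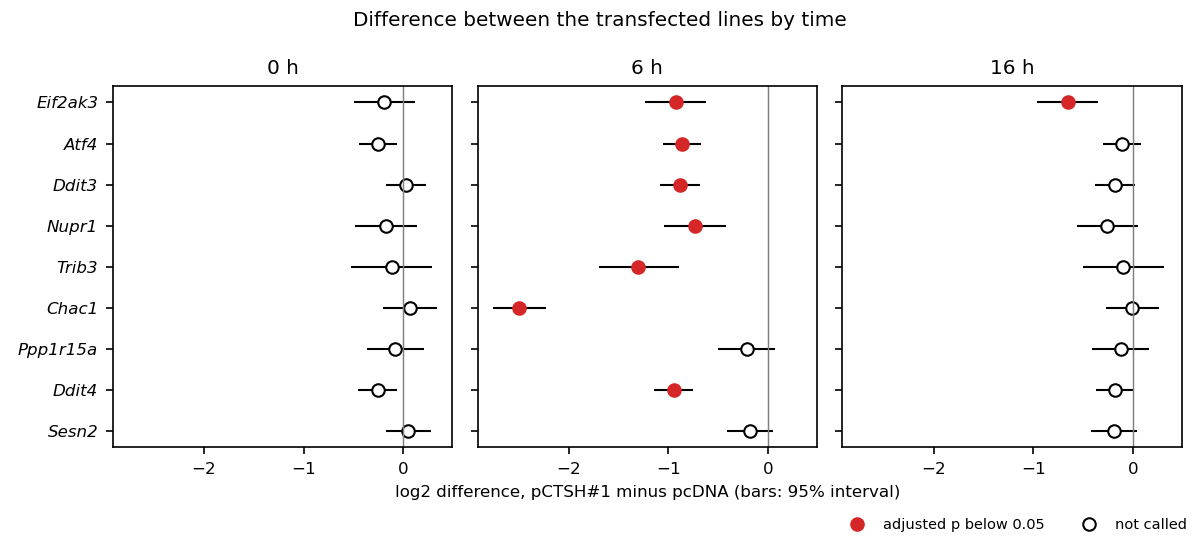
Difference between the lines (log2, pCTSH#1 minus pcDNA, x axis) for each gene at 0, 6 and 16 h, with 95% intervals from the limma model. Filled points passed an adjusted p of 0.05: 0 genes at 0 h, 7 at 6 h and only Eif2ak3 at 16 h.

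The third question was whether the responses themselves differed, tested as the change from 0 h in pCTSH#1 minus that in pcDNA. At 6 h this difference passed for 3 of the 9 genes, Ddit3, Chac1 and Ddit4, all with a lower response in pCTSH#1. Over all genes it passed for 0.104% in that direction. At 16 h it passed for 0 of the 9 by limma (1 at an unadjusted p under 0.05, Eif2ak3), against 0.275% of all genes. For the change between 6 and 16 h it passed for 4 of the 9, Atf4, Ddit3, Chac1 and Ddit4, all with the larger rise in pCTSH#1, against 0.179% of all genes in that direction. The call of Ddit4 at 6 h was lost whichever single array was left out (adjusted p = 0.0589 to 0.14), with 2 of the 9 then called. The calls of the later interval were lost in some fits for Ddit3 and Ddit4, as given with each gene.

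Among the regulators, Eif2ak3 encodes the sensor PERK itself. At 0 h the arrays read 8.05, 7.95 and 7.46 in INS1, 8.07, 7.86 and 7.59 in pcDNA, and 7.55, 7.96 and 7.45 in pCTSH#1. With 6 h of cytokines they read 9.28, 9.24 and 9.28 in pcDNA and 8.32, 8.31 and 8.39 in pCTSH#1. The groups overlapped at 0 h, while at 6 h every pcDNA array lay above every pCTSH#1 array and both lines lay above their own arrays at 0 h. The 16 h values were 10.17, 10.18 and 9.96 in pcDNA and 9.38, 9.42 and 9.55 in pCTSH#1, again without overlap. The rise at 6 h was 1.43 ± 0.15 in pcDNA and 0.69 ± 0.15 in pCTSH#1 (log2, ± standard error of the limma model, n = 3 arrays a group; adjusted p = 1.68e-07 and 0.0011).

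PERK messenger was lower in pCTSH#1 by -0.92 ± 0.15 at 6 h (adjusted p = 0.000791) and by -0.65 ± 0.15 at 16 h (0.0137). It was the one gene of the 9 that still differed between the lines at 16 h. That call was lost without replicate 1 or 2 of pcDNA at 16 h (adjusted p = 0.0575 and 0.0614), so at 16 h 0 of 9 genes passed in those fits. The change from 0 h in pCTSH#1 minus that in pcDNA was -0.74 at 6 h (95% interval -1.17 to -0.30, adjusted p = 0.388) and -0.47 at 16 h (-0.90 to -0.03, adjusted p = 0.582), and neither passed. In order of level, pcDNA at 16 h came first, then pCTSH#1 at 16 h, pcDNA at 6 h and pCTSH#1 at 6 h, none overlapping its neighbour, and the 3 groups at 0 h overlapped each other.

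Atf4 encodes the transcription factor at the centre of the arm, which is known to be controlled largely by translation. Its arrays at 0 h read 10.67, 10.46 and 10.30 in INS1, 10.51, 10.36 and 10.67 in pcDNA, and 10.26, 10.21 and 10.33 in pCTSH#1. After 6 h they read 11.33, 11.43 and 11.28 in pcDNA and 10.47, 10.50 and 10.50 in pCTSH#1. After 6 h the arrays of pCTSH#1 thus lay above their own at 0 h but within the range of untreated INS1 and pcDNA arrays, and those of pcDNA lay above all untreated ones. By 16 h the values were 12.61, 12.56 and 12.55 in pcDNA and 12.45, 12.47 and 12.48 in pCTSH#1, both far above 6 h.

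The rise of Atf4 at 6 h was 0.83 ± 0.09 in pcDNA (adjusted p = 3.83e-07), and the value in pCTSH#1 was 0.22 ± 0.09 (adjusted p = 0.0779), which did not pass. In some alternative fits the rise in pCTSH#1 did pass (lowest adjusted p = 0.0141, with trend and robust settings). The lines differed by -0.86 ± 0.09 at 6 h (adjusted p = 8.91e-06). At 16 h the difference was -0.11 (95% interval -0.30 to 0.08), with a 4.17-fold rise from 0 h in pcDNA and a 4.59-fold rise in pCTSH#1. Between 6 and 16 h Atf4 rose by 0.75 ± 0.13 more in pCTSH#1 (adjusted p = 0.012). The difference in response at 6 h, -0.61 ± 0.13, did not pass (adjusted p = 0.0966), though it did in some alternative fits (lowest adjusted p = 0.00159, with trend and robust settings).

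Ddit3 encodes CHOP, a partner of C/EBP factors that lies downstream of ATF4. At 0 h its arrays read 7.64, 7.81 and 7.57 in INS1, 7.56, 7.46 and 7.54 in pcDNA, and 7.60, 7.59 and 7.45 in pCTSH#1. At 6 h they read 9.62, 9.47 and 9.33 in pcDNA and 8.73, 8.63 and 8.40 in pCTSH#1. Both lines had left their range at 0 h, and the lowest pcDNA array lay above the highest of pCTSH#1. By 16 h they read 12.34, 12.39 and 12.29 in pcDNA and 12.17, 12.22 and 12.09 in pCTSH#1, 28.2-fold and 24.5-fold above 0 h.

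The CHOP gene rose at 6 h by 1.95 ± 0.10 in pcDNA (3.87-fold) and by 1.04 ± 0.10 in pCTSH#1 (2.06-fold), and these responses differed by -0.91 ± 0.13 (adjusted p = 0.00501). From 6 to 16 h the rise was 0.70 ± 0.13 larger in pCTSH#1 (adjusted p = 0.0278). That second call was lost in a fit of only the arrays compared (adjusted p = 0.0934) and in 7 of the fits without 1 array (adjusted p = 0.0557 to 0.0747): replicates 1 or 2 of pcDNA at 6 h, 1 of pcDNA at 16 h, 2 or 3 of pCTSH#1 at 6 h, and 1 or 2 of pCTSH#1 at 16 h. The 16 h arrays of the lines did not overlap, but their difference of -0.18 (95% interval -0.38 to 0.02) did not pass (adjusted p = 0.397).

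Nupr1 encodes a small stress-induced chromatin protein and is a known target of the arm. At 0 h the arrays read 10.1, 9.9 and 10.12 in INS1, 9.79, 9.79 and 10.11 in pcDNA, and 9.49, 9.67 and 10.03 in pCTSH#1. At 6 h the values were 10.72, 10.62 and 10.30 in pcDNA and 9.89, 9.80 and 9.77 in pCTSH#1. The 6 h arrays of pCTSH#1 stayed within the untreated range, and those of pcDNA were above it. The 16 h arrays read 12.71, 12.63 and 12.27 in pcDNA and 12.28, 12.45 and 12.12 in pCTSH#1, which overlapped.

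For Nupr1 the 6 h change was 0.65 ± 0.15 in pcDNA (adjusted p = 0.00168) and 0.09 ± 0.15 in pCTSH#1 (adjusted p = 0.746). The lines differed by -0.73 ± 0.15 at 6 h (adjusted p = 0.007), and without replicate 1 of pcDNA at 6 h this no longer passed (0.0504). The difference between the responses was -0.56 (95% interval -1.0 to -0.13) and did not pass (adjusted p = 0.658). At 16 h Nupr1 had risen 6.24-fold in pcDNA and 5.87-fold in pCTSH#1.

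**Figure D3:**
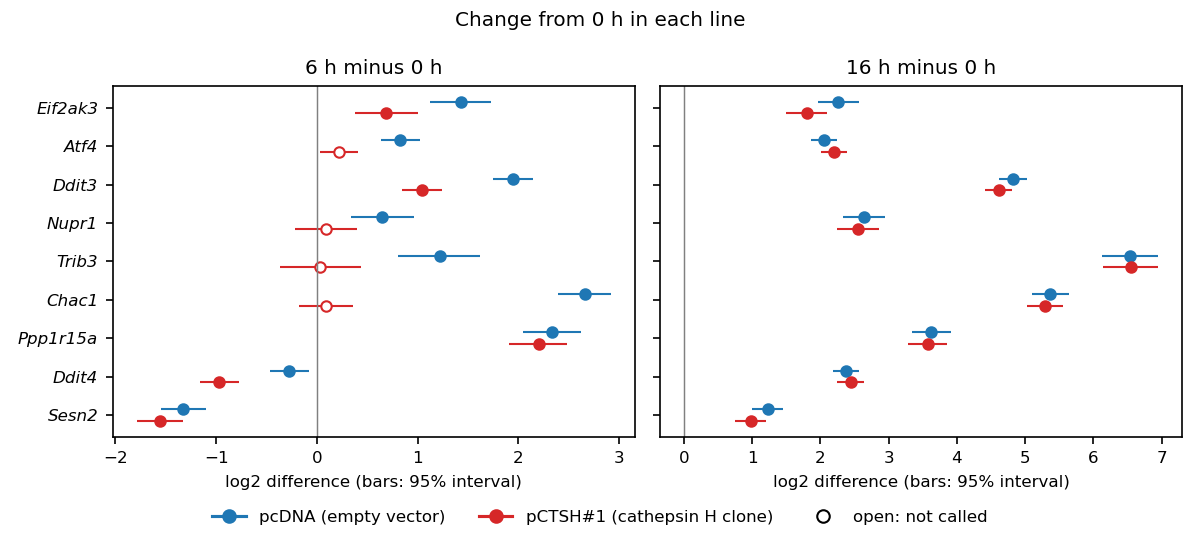
Change from 0 h (log2, x axis) of each gene at 6 h and at 16 h in pcDNA and pCTSH#1, with 95% intervals from the limma model. Filled points passed an adjusted p of 0.05. At 6 h Atf4, Nupr1, Trib3 and Chac1 passed in pcDNA and not in pCTSH#1, and at 16 h all 9 passed in both lines.

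Trib3 encodes a pseudokinase that ATF4 and CHOP induce and that restrains both ATF4 and the kinase Akt. At 0 h the arrays read 4.47, 5.05 and 4.87 in INS1, 4.99, 4.85 and 5.03 in pcDNA, and 4.87, 4.57 and 5.08 in pCTSH#1, all close above background, so folds from 0 h are compressed. The 6 h arrays read 5.90, 5.88 and 6.74 in pcDNA and 5.10, 4.86 and 4.66 in pCTSH#1. No pcDNA array at 6 h overlapped the untreated ones, whereas the pCTSH#1 arrays lay nearly within the untreated range. By 16 h the values were 11.5, 11.32 and 11.64 in pcDNA and 11.43, 11.26 and 11.48 in pCTSH#1, with rises of 92.5-fold and 93.6-fold.

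At 6 h Trib3 rose by 1.22 ± 0.19 in pcDNA (adjusted p = 4.79e-05), and in pCTSH#1 the value was 0.03 ± 0.19 (adjusted p = 0.939). The lines differed by -1.30 ± 0.19 (adjusted p = 0.000491). Among the 9 genes and 7 groups this pcDNA group had the widest spread between replicates (SD 0.49, with replicate 3 high), and the difference in response, -1.18 ± 0.27, did not pass (adjusted p = 0.17). In 1 of the other 2 Trib3 probe sets, both dimmer on average, 2 of the 3 pCTSH#1 arrays at 6 h were at background, so no 6 h size is given for it. It did call a lower response in pCTSH#1 (adjusted p = 8.33e-05). The remaining probe set also called the difference in response, at -1.33 ± 0.19 (adjusted p = 0.00257).

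This remaining probe set also called a larger rise in pCTSH#1 between 6 and 16 h, by 1.16 ± 0.19 (adjusted p = 0.00707). So did the probe set partly at background (adjusted p = 0.000723). The probe set chosen by the rule gave 1.20 ± 0.27 (0.0656), which did not pass. All 3 probe sets gave 16 h differences of -0.10, -0.30 and -0.14 between the lines, none of which passed.

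Chac1 encodes an enzyme that breaks down glutathione and is a known target of ATF4. At 0 h its arrays read 5.16, 5.54 and 5.19 in INS1, 5.35, 5.42 and 5.35 in pcDNA, and 5.17, 5.51 and 5.67 in pCTSH#1. At 6 h they read 7.95, 7.93 and 8.23 in pcDNA and 5.48, 5.40 and 5.72 in pCTSH#1. The 6 h arrays of pCTSH#1 overlapped the untreated ones and lay more than 2 log2 units below every pcDNA array. The lines at 16 h read 10.66, 10.71 and 10.87 in pcDNA and 10.72, 10.67 and 10.82 in pCTSH#1 and overlapped.

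The difference between the lines at 6 h was largest for Chac1 among the 9 genes, at -2.50 ± 0.13 or 5.64-fold (adjusted p = 7.97e-10). The rise at 6 h was 6.31-fold in pcDNA, and the value in pCTSH#1 was 0.09 on the log2 scale with a 95% interval that includes 0 (adjusted p = 0.695). The responses differed by -2.57 ± 0.18 (adjusted p = 4.55e-07). Between 6 and 16 h pCTSH#1 rose by 5.20 ± 0.13 and pcDNA by 2.71 ± 0.13, a difference of 2.49 ± 0.18 (adjusted p = 7.83e-07). The difference at 16 h was -0.01 (95% interval -0.27 to 0.26), and Chac1 was 41.3-fold above 0 h in pcDNA and 39.1-fold in pCTSH#1. All these calls of Chac1 were kept in every alternative and without any single array.

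Ppp1r15a encodes GADD34, the subunit that directs a phosphatase to eIF2 and so closes the feedback loop of the arm. At 0 h its arrays read 6.60, 6.42 and 5.82 in INS1, 6.57, 6.41 and 6.34 in pcDNA, and 6.40, 6.42 and 6.27 in pCTSH#1. By 6 h they read 8.85, 8.85 and 8.63 in pcDNA and 8.53, 8.61 and 8.54 in pCTSH#1, and at 16 h 9.96, 10.11 and 10.12 in pcDNA and 9.93, 9.99 and 9.90 in pCTSH#1. Both lines were above their untreated arrays at 6 h, and the 3 pcDNA arrays were only just above those of pCTSH#1. The rise at 6 h was 2.33 ± 0.14 in pcDNA (5.04-fold, adjusted p = 3.56e-11) and 2.20 ± 0.14 in pCTSH#1 (4.58-fold, adjusted p = 1.11e-10). The lines differed by -0.21 (95% interval -0.50 to 0.07, adjusted p = 0.617) at 6 h, and their responses by -0.14 (-0.54 to 0.26, adjusted p = 0.999). GADD34 was thus the gene of the 9 with the largest 6 h rise in pCTSH#1.

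Ddit4 and Sesn2 encode REDD1 and sestrin 2, stress-induced inhibitors of the growth kinase mTORC1. The Ddit4 arrays at 0 h read 7.66, 7.68 and 7.59 in INS1, 7.64, 7.63 and 7.60 in pcDNA, and 7.27, 7.34 and 7.50 in pCTSH#1. At 6 h they read 7.30, 7.39 and 7.35 in pcDNA and 6.34, 6.39 and 6.48 in pCTSH#1. The pCTSH#1 arrays at 6 h were the lowest of all 21, without overlap with any other group. At 16 h they read 9.94, 10.22 and 9.84 in pcDNA and 9.91, 9.87 and 9.68 in pCTSH#1, which overlapped.

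Ddit4 fell by 0.97 ± 0.09 at 6 h in pCTSH#1 (1.95-fold, adjusted p = 8.51e-08). Its smaller fall in pcDNA, by 0.28 ± 0.09 (adjusted p = 0.0285), lost its call after cyclic loess (adjusted p = 0.224), after centring each array on its median (0.0657) and without any single array (0.0521 to 0.0929) other than replicate 2 at 6 h. At 6 h the lines differed by -0.94 ± 0.09 (adjusted p = 4.31e-06), and their responses by -0.69 ± 0.13 (adjusted p = 0.0449). The rise from 6 to 16 h was 10.7-fold in pCTSH#1 and 6.29-fold in pcDNA, a difference of 0.76 ± 0.13 (adjusted p = 0.013; 0.0508 without replicate 1 of pCTSH#1 at 6 h and 0.0714 in a fit of only the arrays compared). At 16 h Ddit4 stood 5.2-fold above 0 h in pcDNA and 5.46-fold in pCTSH#1.

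Sesn2 arrays at 0 h read 8.49, 8.65 and 8.74 in INS1, 8.40, 8.28 and 8.66 in pcDNA, and 8.40, 8.52 and 8.58 in pCTSH#1. At 6 h they read 7.18, 6.99 and 7.19 in pcDNA and 7.07, 6.97 and 6.78 in pCTSH#1. The gene was low in both lines at 6 h, below every untreated array, and the lines overlapped. At 16 h the values were 9.58, 9.67 and 9.76 in pcDNA and 9.62, 9.33 and 9.48 in pCTSH#1, above every untreated array. Sesn2 fell by 1.33 ± 0.11 at 6 h in pcDNA (2.51-fold, adjusted p = 7.64e-09) and by 1.56 ± 0.11 in pCTSH#1 (2.95-fold, adjusted p = 7.65e-10). It then rose 5.86-fold and 5.82-fold between 6 and 16 h.

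The lines did not pass as different in Sesn2 at 6 h (-0.18, 95% interval -0.41 to 0.05) or at 16 h (-0.19, -0.42 to 0.04). A second, dim Sesn2 probe set (mean 4.48 over all arrays) gave -0.12 at 6 h in pcDNA (adjusted p = 0.685) and a rise of 0.76 at 16 h (adjusted p = 0.000692). In pCTSH#1 at 16 h its value was 0.34 (adjusted p = 0.105). The fall at 6 h thus rests on the brighter probe set.

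On the log2 scale the difference between the responses at 16 h ran from -0.47 for Eif2ak3 to 0.14 for Atf4, with a median of -0.08. Its 95% interval was narrowest for Atf4 (-0.13 to 0.41) and widest for Trib3 (-0.56 to 0.59).

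Genes around the arm were described through 4 further lists. Over all genes 14.5% rose and 24.6% fell at 6 h in pcDNA, and 13% rose and 21.3% fell in pCTSH#1. At 16 h 25.8% of all genes were higher in pcDNA and 25.2% in pCTSH#1. Of the 31042 probe sets 14399 passed at 16 h in pcDNA, 45.8% of them higher and the rest lower. In pCTSH#1 14413 passed, 44.8% of them higher. Between the lines at 6 h 1.56% of all genes were lower in pCTSH#1 and 2.43% higher. Of 15 measured genes of the eIF2 kinases, eIF2 subunits and their phosphatase, 2 rose and 7 fell at 6 h in each line, and 7 rose and 5 fell at 16 h in each line (3 fell in pcDNA without replicate 2 at 0 h or replicate 3 at 16 h). Eif2ak2, which encodes the antiviral kinase PKR, rose at 6 h by 2.58 ± 0.08 in pcDNA and 2.47 ± 0.08 in pCTSH#1, and Eif2ak4, the amino acid sensor GCN2, fell by 0.72 ± 0.11 and 0.76 ± 0.11. At 16 h Impact, an inhibitor of GCN2, was up by 1.63 ± 0.12 in pcDNA and 1.66 ± 0.12 in pCTSH#1. Ppp1r15b, the constitutive counterpart of GADD34, was up by 1.54 ± 0.09 and 1.49 ± 0.09. Between the lines 1 of the 15 was lower in pCTSH#1 at 6 h, Dnajc3, an inhibitor of PERK (-0.38 ± 0.09, adjusted p = 0.0244), and 0 of the 15 were lower whichever array was left out.

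Among 10 measured bZIP genes whose products pair or act with ATF4 and CHOP, 5 rose and 1 fell at 6 h and 8 rose at 16 h, in each line. The count of falls at 6 h was 2 in pcDNA without its replicate 3 at 6 h, and 0 in pCTSH#1 without replicate 1 at 6 h or replicate 2 at 0 h. Atf3, an early stress repressor, rose by 5.16 ± 0.12 at 6 h in pcDNA and 4.55 ± 0.12 in pCTSH#1. Cebpd, an inflammatory C/EBP factor, was lower in pCTSH#1 at every time, by -1.12 ± 0.09 at 0 h, -0.99 ± 0.09 at 6 h and -0.55 ± 0.09 at 16 h (adjusted p = 4.61e-07, 2.18e-06 and 0.00151). Cebpb, a C/EBP factor that dimerises with CHOP, was lower at 6 h by -0.54 ± 0.10 (adjusted p = 0.00226). The difference in Cebpd thus passed before cytokines, where 0 of the 9 genes did. At 0 h 2 of the 10 were lower in pCTSH#1 and 1 was higher, against 2.56% of all genes in either direction. Besides Cebpd these were Jun (-0.77 ± 0.17, adjusted p = 0.0214) and Atf5 (0.33 ± 0.08, adjusted p = 0.0354). Jun and Atf5 lost their calls in several fits without 1 array.

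Of 42 other measured targets of ATF4 and CHOP, 9 rose and 10 fell at 6 h in pcDNA, and 34 rose and 1 fell at 16 h (2 fell without replicate 1 or 2 at 0 h). In pCTSH#1 7 rose and 12 fell at 6 h, and by 16 h 33 had risen and 1 had fallen. Their median change at 16 h was 1.44 in pcDNA and 1.29 in pCTSH#1, against 0 and -0.01 over all genes, and at 6 h it was -0.03 and -0.06, near the -0.06 of all genes in both. At 6 h between the lines 5 of the 42 were lower in pCTSH#1, 1 was higher and 36 did not pass, and 3 were lower whichever array was left out. Gdf15, a secreted stress hormone, differed by -1.34 ± 0.21 (adjusted p = 0.000648), and Herpud1, which serves the removal of misfolded proteins, by -1.07 ± 0.14 (adjusted p = 8.94e-05). The responses differed for 0 of the 42 at 6 h and at 16 h by limma.

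The neighbouring branches of the stress response, ATF6 and XBP1 with their chaperone targets, had genes moving both ways, as the whole array did. Of 22 measured genes 2 rose and 7 fell at 6 h in pcDNA, where 14.5% of all genes rose and 24.6% fell. At 16 h 5 of the 22 rose and 8 fell. There 25.8% of all genes were higher, and of the called probe sets 45.8% were higher and the rest lower. The falls at 6 h were not firm: 2 genes were lower without replicate 1 of pcDNA at 0 h, 3 without replicate 2, and 3 lower and 3 higher after cyclic loess. In pCTSH#1 2 rose and 5 fell at 6 h, against 13% and 21.3% of all genes. At 16 h 6 rose and 11 fell in pCTSH#1. There 25.2% of all genes were higher, and of the called probe sets 44.8% were higher and the rest lower. Falls in pCTSH#1 at 6 h numbered 3 without replicate 1 or 2 at 0 h or at 6 h, and 9 without replicate 3 at 0 h. At 16 h Sel1l, of the degradation complex, rose by 2.46 ± 0.10 in pcDNA and 2.24 ± 0.10 in pCTSH#1, and the chaperone partner Dnajb9 by 1.77 ± 0.13 and 1.84 ± 0.13. Between the lines at 6 h 3 were lower in pCTSH#1 and 19 did not pass. Dnajb9, 1 of the 3, was lower by -0.83 ± 0.13 (adjusted p = 0.000957). Creld2, another of the 3, lost its call whichever 6 h array was left out (adjusted p up to 0.205). Without pcDNA replicate 3 or pCTSH#1 replicate 2 at 6 h Atf6 lost its call too, and 1 was lower.

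**Figure D4:**
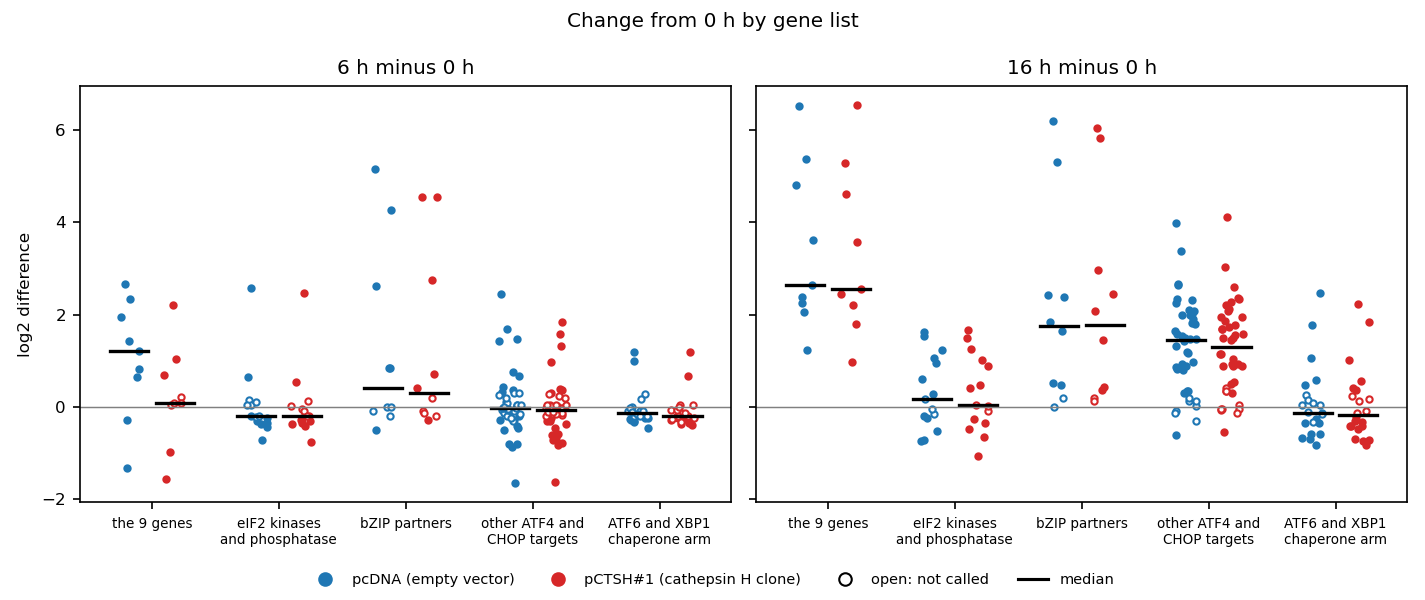
Change from 0 h (log2, y axis) of the 9 genes and of 4 lists of surrounding genes at 6 h and 16 h. Each point is a gene in pcDNA or pCTSH#1, open points did not pass an adjusted p of 0.05, and black bars are medians. At 16 h the median of the 9 genes was 2.64 in pcDNA and 2.55 in pCTSH#1, and that of the 42 other targets 1.44 and 1.29.

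The genes most alike in pattern were found by the root mean square difference between 7 group means, each gene centred on its own mean, over 13438 genes. For Nupr1 the nearest was Herpud1 (0.11 on the log2 scale), for Atf4 Cebpb (0.15), and for Chac1 Ddit3 (0.55). Nearest to Ppp1r15a were Irf9 (0.10) and Bst2 (0.14), both genes of the interferon response, which at 6 h were high in both lines. Sesn2 was nearest to Arid5b (0.12), Ddit4 to Irf2bp2 (0.17), Eif2ak3 to the potassium channel gene Kcnd3 (0.08) and Ddit3 to the kinase gene Pim1 (0.35). For Trib3 the nearest was the unnamed locus LOC100911534 (0.77), and the nearest with a gene name was Chac1 (0.82). The distance is not scaled, so it tends to be larger for genes of wide range. From lowest to highest array Trib3 spanned 7.17 and Eif2ak3 2.72 on the log2 scale. These values are descriptions over 7 group means and carry no test.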

How the data were processed

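Each of the 21 INS-1 samples was hybridised to its own Affymetrix array. What the authors deposited is a table of log2 intensities per probe set, already processed by RMA, and it was used without change. The submitters' processing notes name RMA, affy and limma but give no versions. RMA brings all arrays to one distribution, which would hide a shift shared by most genes. After removal of 95 array controls, 31042 probe sets entered the tests and none was dropped for low signal. A single gene symbol was annotated for 19063 of them.

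The members, the lists and the tests were chosen with earlier results of these data known. A gene with several single-symbol probe sets was represented by the one that was brightest on average across the series. The text names the 9 members, up to 4 genes of a list in a comparison by the size of their change among those past the threshold, and the 2 genes nearest to a member in pattern. Genes whose call ended in an alternative were mostly left out.

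Group means of the 7 groups were fitted in limma 3.58.1 (R 4.3.3; lmFit, then eBayes), and 14 two-sided comparisons were read from this fit. Benjamini-Hochberg adjustment ran over the 31042 probe sets of a comparison, and the threshold was 0.05. Intervals cover 95%. Levels of different genes were not compared, since probes differ. Promoter windows came from RefSeq (GRCr8). The alternatives comprised a replicate block, median centring, cyclic loess, restriction to the brighter 50% of probe sets, trend and robust eBayes, array weights, a fit of the compared arrays alone, averaging of a gene's probe sets, and leaving out single arrays. For the block, arrays of equal number were compared in their residuals. Only 2 of 21 pairs of groups had all 3 correlations above 0.1 (range -0.09 to 0.244), so the block stayed an alternative. Figures used matplotlib 3.10.9 (Python 3.11.15).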

Additional observations from a re-analysis of the deposited data

Results flagged for a closer look

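Tests of the difference between the lines' responses drew attention to 4 of the 9 genes. Groups of 3 arrays are too small for a test of single outlying arrays, and none was made.

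From 0 to 6 h the change in pCTSH#1 minus that in pcDNA was -2.57 for Chac1, the glutathione-degrading enzyme, -0.91 for Ddit3, which encodes CHOP, and -0.69 for Ddit4, which encodes REDD1 (log2, limma adjusted p = 4.55e-07, 0.00501 and 0.0449). Chac1 and Ddit3 rose in 3 of 3 arrays of pcDNA above every array at 0 h, as Ddit3 also did in pCTSH#1, and Ddit4 fell in pCTSH#1. These arrays entered the test that picked the genes, so their positions are no separate support. The smaller fall of Ddit4 in pcDNA lost its call after cyclic loess, after median centring and in most fits without 1 array. The Ddit4 difference between the responses kept its sign without any single array, but its call did not stand in any of these 12 fits.

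From 6 to 16 h the same difference was 2.49 for Chac1, 0.76 for Ddit4, 0.75 for Atf4 and 0.70 for Ddit3 (adjusted p = 7.83e-07, 0.013, 0.012 and 0.0278). In each of these 4 genes the 6 h arrays of the 2 lines did not overlap. Those arrays entered the test that picked the 4 genes, so the lack of overlap is no separate support. The intervals share the 6 h arrays, so the values of the first and the second interval are not independent.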

How the results depend on the processing

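Of 1926 values of the 9 genes under the alternatives, 45 changed sign (36 with 1 array left out), none of them called in either fit and each at most 0.16 in size on the log2 scale. Leaving out 1 array kept 890 gene values on their side of the threshold and lost 28 calls, and the other alternatives kept 988, gained 14 and lost 6. With 1 array left out, the count of called genes was 8 to 9 for pcDNA at 6 h, 6 to 7 between the lines at 6 h, and 0 to 1 between them at 16 h. It was 2 to 2 for the difference in response at 6 h and 3 to 4 for that between 6 and 16 h. The count for the 6 h response was 5 with eBayes trend and robust settings and 5 with the mean of all probe sets, in place of 3. That for 6 to 16 h was 2 with only the arrays compared, in place of 4, and 5, with Trib3 added, for the brighter probe sets (adjusted p of Trib3 0.0426), trend and robust settings (0.0195) and the mean of its probe sets (0.000731), 1 of which was partly at background. With the replicate block the Ddit4 difference at 6 h was -0.69 (adjusted p = 0.0549) and with median centring 0.0619, and the block changed no other call of the 9. Atf4 gained a call of its 6 h response difference with trend and robust settings (adjusted p = 0.00159), array weights (0.0177), the brighter probe sets (0.0443) and the mean of probe sets (0.0458), and Trib3 with trend and robust settings (0.047) and the mean of its probe sets (0.000291). The Atf4 rise at 6 h in pCTSH#1 passed in 5 alternatives (0.0141 to 0.0469). The causes were not tested. After cyclic loess 51.6% of called probe sets were higher at 6 h in pcDNA against 39.6%, and 51.9% against 40.1% in pCTSH#1. Median centring gave 57.9% against 47% in pCTSH#1 from 6 to 16 h, with a median shift of all genes of 0.103. Trib3 and Chac1 at 0 h lay near background, which limits their folds.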
